A study of Mus musculus with 22 samples.

Results

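The Hox genes of the mouse aorta are described here. They were taken as all genes whose annotated symbol is Hoxa, Hoxb, Hoxc or Hoxd followed by a number, with the brightest probe set (a group of short array probes for one transcript) standing for each gene. Of 39 mouse Hox genes, 33 were analysed, each by a probe set annotated to it alone, among 18193 genes in all. They were 9 genes of the Hoxa cluster, 9 of Hoxb, 7 of Hoxc and 8 of Hoxd, with 48 probe sets between them. The probe sets of Hoxb8 and Hoxd4 are shared with a neighbouring gene, and these and the remaining Hox genes were not analysed as members.

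Hox genes encode homeodomain transcription factors that give cells their position along the body axis of the embryo. They lie in 4 clusters, and the paralogue number of a gene marks its place in the cluster. Genes of low number are switched on early and reach far towards the head, and genes of high number are switched on later and towards the tail, an order known as colinearity. Vascular smooth muscle and fibroblasts of the adult keep part of this pattern, and Hox expression differs between vascular beds.

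RNA was measured on 22 Affymetrix arrays, 8 of aortic tissue and 14 of cultured cells. Each tissue array held RNA pooled over male C57BL/6 mice, and each pool had its own genotype, segment and treatment. The genotypes were WT (wild type) and TNC-KO, in which the tenascin C gene is knocked out. The suprarenal segment was the 10 mm of aorta upstream of the right renal artery, and the infrarenal segment the 10 mm downstream of the left. Untreated pools held 5 mice. Pools called Ca+AngII held 8 mice that had 0.5 M CaCl2 applied around the infrarenal aorta alone, to stiffen it, and angiotensin II at 1 µg/min/kg for 1 week. The labels do not state whether both segments of a pair came from the same mice. The cells were smooth muscle cells dispersed from the suprarenal aorta of TNC-KO mice, so all of them lack the tenascin C gene. They received nothing (3 arrays), tumour necrosis factor (TNF, 10 ng/mL, 3 arrays), exogenous tenascin C (TNC, 10 µg/mL, 4 arrays) or both (4 arrays). The design text calls the cultures independent and states 24 h of TNF. Hours in the sample labels, which go up by 1 from array to array between 23 and 36, were left aside. Arrays with TNC alone carry a title that also mentions TNF, and were grouped by their treatment label, exogenous TNC.

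Signals are the authors' linear intensities, and comparisons were made as log2 differences. Tnc itself, the targeted gene, read 1805 to 2699 in the 4 WT pools, 257 to 489 in the 4 TNC-KO pools and 66.3 to 144 in the cells, so the labels of genotype held. Smooth muscle markers summed to 51223 to 91540 in the pools. In the cells Acta2, the smooth muscle actin, stayed bright at 15304 to 23322, while Myh11, the smooth muscle myosin, read 27.9 to 407 against 14216 in the untreated TNC-KO suprarenal pool. The endothelial markers Pecam1, Cdh5 and Emcn read 3097 to 5065, 1629 to 2472 and 9298 to 14206 in the cells, while Kdr read 44.5 to 98.1, so the cells do not show smooth muscle markers alone. The number of arrays limits the precision of every value.

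Shown here are the 250 bases before the transcription start of 4 of them, paralogues 9 and 10 of the Hoxa and Hoxd clusters, because these moved together between the segments. Sequences are RefSeq's, on GRCm38.p6, written 5′ to 3′ on the gene's own strand, with capitals marking a motif match. Hoxa9 is on the minus strand of chromosome 6 at chr6:52227371-52227620 and Hoxa10 on the same strand at chr6:52240855-52241104. Hoxd9 is on the plus strand of chromosome 2 at chr2:74697513-74697762 and Hoxd10 on the same strand at chr2:74691641-74691890.
Hoxa9: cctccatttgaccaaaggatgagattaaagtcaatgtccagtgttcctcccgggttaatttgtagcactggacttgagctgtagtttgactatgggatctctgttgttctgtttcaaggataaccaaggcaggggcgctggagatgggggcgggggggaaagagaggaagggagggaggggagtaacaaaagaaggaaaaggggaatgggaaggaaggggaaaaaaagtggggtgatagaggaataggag
Hoxa10: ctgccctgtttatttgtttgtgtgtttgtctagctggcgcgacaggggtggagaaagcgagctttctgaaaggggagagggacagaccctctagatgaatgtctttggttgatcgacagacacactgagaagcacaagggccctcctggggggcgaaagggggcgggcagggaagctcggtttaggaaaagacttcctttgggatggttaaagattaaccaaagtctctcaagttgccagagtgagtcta
Hoxd9: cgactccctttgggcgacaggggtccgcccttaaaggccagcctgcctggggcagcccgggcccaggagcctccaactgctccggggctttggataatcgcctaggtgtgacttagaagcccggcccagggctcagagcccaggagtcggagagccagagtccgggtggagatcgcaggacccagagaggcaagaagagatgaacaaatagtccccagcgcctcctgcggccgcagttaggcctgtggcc
Hoxd10: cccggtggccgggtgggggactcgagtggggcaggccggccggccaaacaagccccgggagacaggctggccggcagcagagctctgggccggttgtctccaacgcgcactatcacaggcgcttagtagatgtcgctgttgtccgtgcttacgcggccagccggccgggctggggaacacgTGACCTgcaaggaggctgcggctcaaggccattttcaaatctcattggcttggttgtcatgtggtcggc

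The windows were searched for 4 motifs on both strands, by their letters alone. They were TTTATG (a CDX element, held by 10.8% of 32851 promoters of the same length), TGATTNAT (a joint PBX and HOX element, 2.82%), TATAAA (held by many core promoters, here 12.4%) and AGGTCA (a nuclear receptor half-site, 14%). In the 4 windows the single match was the half-site in Hoxd10, on the reverse strand. GC made up 49.6% of the Hoxa9 and 51.6% of the Hoxa10 window, with 3 and 7 CpG, and 65.2% of the Hoxd9 and 65.6% of the Hoxd10 window, with 13 and 20 CpG. The windows of the called genes Hoxa11 and Hoxd8, not printed, had 52% and 44.4% GC with 13 and 6 CpG. The median of all promoters was 52.4% GC and 6 CpG. A match describes these letters and no binding.

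The first question was how Hox signal differs along the aorta, asked as infrarenal against suprarenal within the 4 pairs of pools of one genotype and treatment. Of the Hox genes 8 were higher in the infrarenal aorta, all of paralogue number 8 to 11, and none was lower in the fit over all 4 pairs with the pair as a block. They were Hoxa9, Hoxa10, Hoxa11, Hoxc9, Hoxc10, Hoxd8, Hoxd9 and Hoxd10, by 1.73-fold to 4.27-fold. Calls were made at an adjusted p below 0.05 (limma, pair as a block, 3 residual degrees of freedom, Benjamini-Hochberg over 14258 genes). Of the 33 members 25 were bright enough to be tested, and 8 of these 25 were called higher, where 5.26% of all genes were called higher, 9.97% lower and 15.2% either way. Of paralogues 8 to 13, 8 of 11 tested were called, with a median log2 difference of 1.39. These counts hold Hoxa11 and Hoxd10, which passed the filter only through their infrarenal pools, where they are high. Of paralogues 1 to 7, 0 of 14 were called at the adjusted threshold and 1, Hoxc4, had an unadjusted p under 0.05, with a median of -0.04. The median over all genes was 0.02. With 1 pair left out the count of called members was 4 without the untreated WT or the Ca+AngII TNC-KO pair, 5 without the untreated TNC-KO pair and 6 without the Ca+AngII WT pair, all higher infrarenally, and 753 to 1096 genes were called in all against 2171. In the 2 untreated pairs alone 7 were called higher, without Hoxd10, and Hoxc4 was called lower, in a fit that called more genes in all. Hoxc4 was also called lower when the pair was not used as a block.

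**Figure D1:**
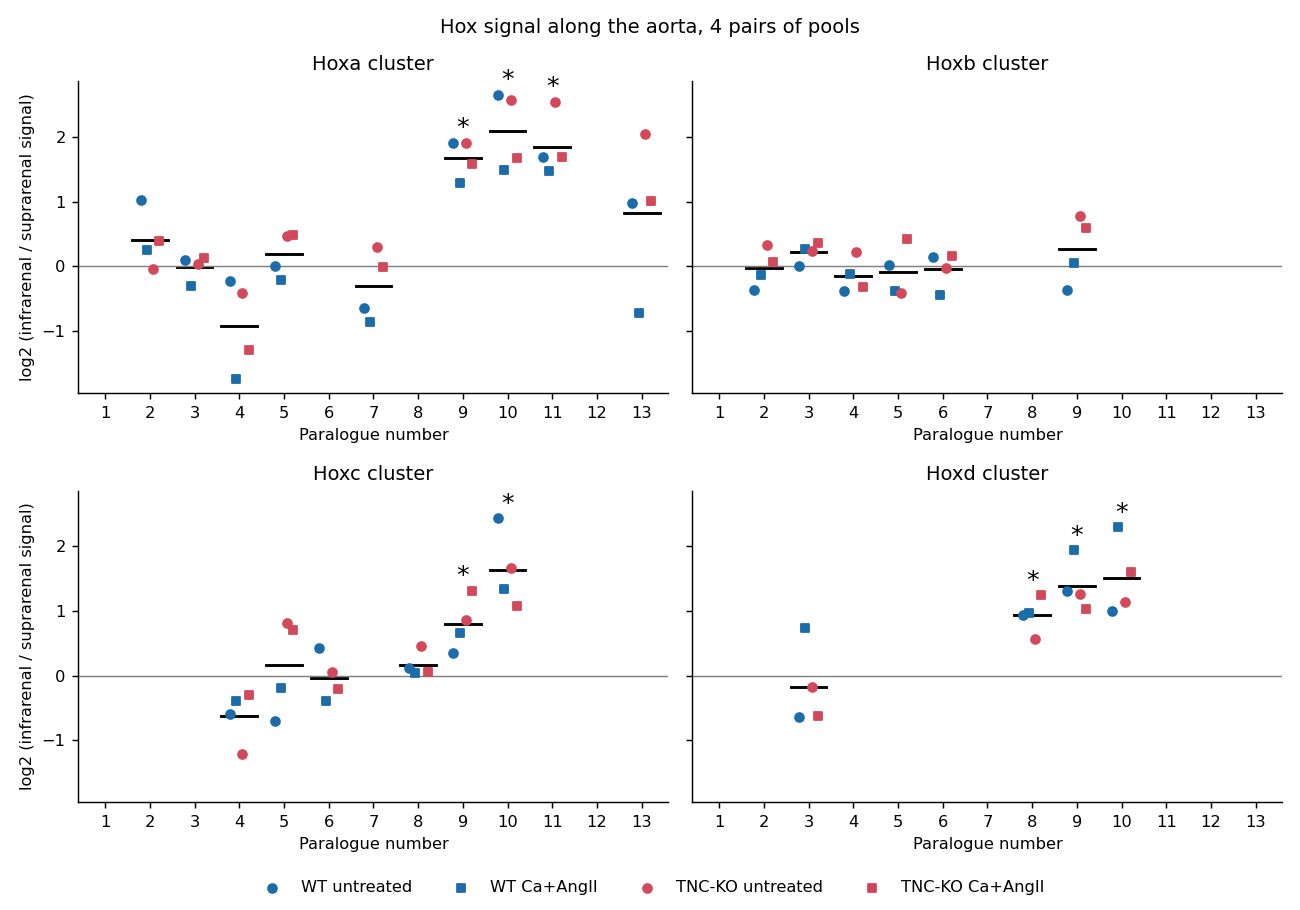
Log2 ratio of infrarenal to suprarenal signal for each tested Hox gene, by cluster and paralogue number. Points are the 4 pairs of pools, the black line is their mean and an asterisk marks an adjusted p under 0.05. Points of Hoxa9, Hoxa10, Hoxa11, Hoxc9, Hoxc10, Hoxd8, Hoxd9 and Hoxd10 all lie above 0, while the tested Hoxb genes have pairs on both sides of 0, Hoxb9 from -0.36 to 0.78.

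In the Hoxa cluster the called genes started at paralogue 9. Hoxa9, a factor also known from the hindlimb level of the trunk and from blood progenitors, read 609, 662, 536 and 573 in the suprarenal pools of untreated WT, Ca+AngII WT, untreated TNC-KO and Ca+AngII TNC-KO mice, and 2295, 1609, 1998 and 1707 in the matching infrarenal pools. The lowest infrarenal pool was above the highest suprarenal one, and the mean log2 difference was 1.67 (SE 0.14, n = 4 pairs, adjusted p = 0.00197, limma). Hoxa10, known for its part in the lumbar spine and uterus, read 213, 239, 208 and 251 suprarenally and 1332, 671, 1233 and 797 infrarenally. Its difference of 2.09 (SE 0.24, adjusted p = 0.00504) stood 23rd among the 14258 genes tested, counted from the highest rise.

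Hoxa11, known from forelimb and kidney development, was dim above the kidneys, at 47.3, 40.9, 24.6 and 35.2, and read 153, 113, 143 and 114 below them. The log2 difference was 1.85 (SE 0.28, adjusted p = 0.0121). Hoxa11 passed the filter only because its infrarenal pools were bright enough, and was not tested under a filter at the 50th percentile. It missed the threshold without the untreated WT pair (1.90, adjusted p = 0.0505) or without the Ca+AngII TNC-KO pair (1.90, adjusted p = 0.0609). Hoxa13, which patterns the hindgut and digits, was near the detection limit at 18.5 to 76.2. It was higher infrarenally in 3 of 4 pairs and lower in Ca+AngII WT mice (42.6 above and 25.6 below), with a log2 difference of 0.82 (SE 0.52, adjusted p = 0.334).

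On the other side of this boundary no Hoxa gene was called. Hoxa7 read 332, 317, 215 and 283 suprarenally and 212, 175, 265 and 279 infrarenally, lower in both WT pairs and higher in untreated TNC-KO mice (-0.31, SE 0.23, adjusted p = 0.41). Hoxa4 read 62.2, 67.8, 32.7 and 78.9 suprarenally and 53.3, 20.2, 24.5 and 32.1 infrarenally. It was lower in 4 of 4 pairs, but the pairs differed widely and the difference of -0.92 (SE 0.39) had an adjusted p of 0.173. Hoxa2, Hoxa3 and Hoxa5 had mean log2 differences of 0.41, -0.02 and 0.19.

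In the Hoxd cluster, which in the mouse has no gene between Hoxd4 and Hoxd8, the called genes started at paralogue 8. Hoxd8, a trunk-level gene, read 427, 452, 451 and 413 suprarenally and 823, 889, 666 and 975 infrarenally. The log2 difference was 0.93 (SE 0.13, adjusted p = 0.0111), and the pools did not overlap. It missed the threshold without the untreated WT pair (0.93, adjusted p = 0.0516) or the Ca+AngII TNC-KO pair (0.83, adjusted p = 0.0555). Hoxd9 read 170, 126, 118 and 195 suprarenally and 423, 481, 282 and 399 infrarenally (1.39, SE 0.18, adjusted p = 0.00846).

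Hoxd10, a gene of lumbar motor neurons and limb buds, read 33.2, 26.8, 47.6 and 42.0 suprarenally and 66.5, 131, 105 and 127 infrarenally. The difference was 1.51 (SE 0.31, adjusted p = 0.0308). Hoxd10 passed the filter only because its infrarenal pools were bright enough, and was not tested under a filter at the 50th percentile. It was higher in 4 of 4 pairs, but the call was lost without any one of the pairs, with adjusted p from 0.0627 to 0.134 for differences of 1.25 to 1.68, and in the untreated pairs alone (1.07, adjusted p = 0.143). Hoxd3, the only gene tested below the boundary in this cluster, had a mean log2 difference of -0.17 (SE 0.30, adjusted p = 0.739). Hoxd11, Hoxd12 and Hoxd13, at 0.839 to 42.0, were too dim to test.

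In the Hoxc cluster the mean difference went from 0.17 at Hoxc8 over 0.79 at Hoxc9 to 1.63 at Hoxc10, and these steps were not tested. Hoxc8, bright in every pool, read 1433, 1759, 1414 and 1547 suprarenally and 1552, 1803, 1945 and 1614 infrarenally. It was higher in 4 of 4 pairs by little, with a log2 difference of 0.17 (SE 0.10, adjusted p = 0.323). Hoxc9, a thoracic-level gene, read 302, 314, 274 and 222 suprarenally and 385, 494, 499 and 549 infrarenally (0.79, SE 0.18, adjusted p = 0.0383). The Hoxc9 call was lost without any one of the 4 pairs (differences of 0.62 to 0.94, adjusted p from 0.0544 to 0.124), and without a variance trend (adjusted p = 0.0583). Hoxc10, a lumbar and hindlimb gene, read 117, 160, 134 and 175 suprarenally and 630, 407, 427 and 370 infrarenally (1.63, SE 0.24, adjusted p = 0.012). Without the untreated TNC-KO pair its difference was 1.62 with an adjusted p of 0.0525.

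Hoxc4, at the anterior end of the cluster, ran the other way. It read 579, 637, 754 and 522 suprarenally and 383, 483, 325 and 424 infrarenally. The infrarenal pools were all below the suprarenal ones, and the difference of -0.63 (SE 0.18) had an adjusted p of 0.0681, outside the threshold. Without the pair block the adjusted p was 0.0444. In the untreated pairs alone the difference was -0.90 (SE 0.18, adjusted p = 0.00436), from -0.60 in WT and -1.21 in TNC-KO mice. With only 2 pairs this SE rests largely on the spread of other genes. More genes were called in all in that fit than over 4 pairs. Hoxc5 and Hoxc6 had mean differences of 0.16 and -0.03, with pairs of both signs.

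**Figure D2:**
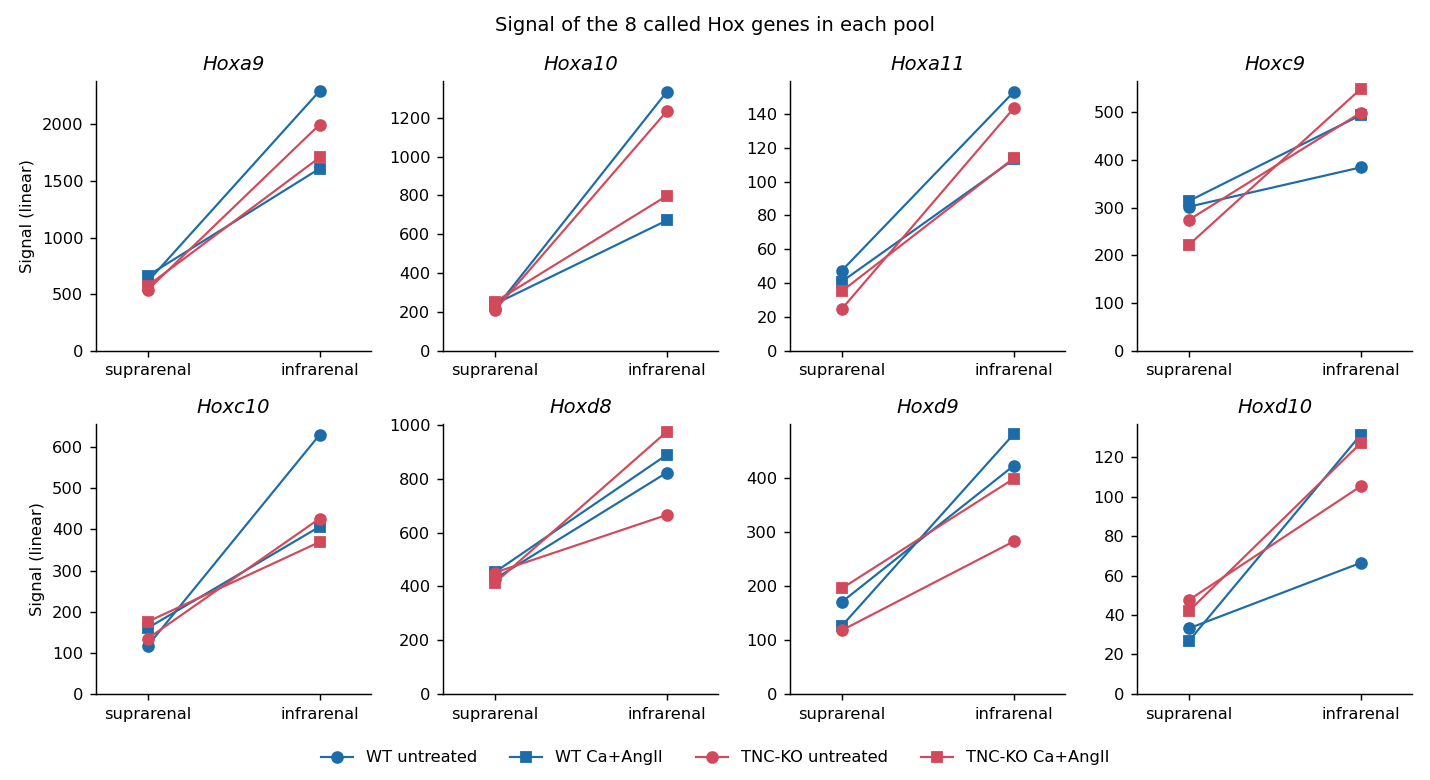
Linear signal of the 8 called Hox genes in the suprarenal and infrarenal pools, 1 line for each pair of pools (colour for genotype, marker for treatment). Every line rises, for Hoxa10 in the untreated pairs from 213 to 1332 in WT and from 208 to 1233 in TNC-KO mice.

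The Hoxb cluster showed no called gene. Hoxb2, Hoxb3, Hoxb4, Hoxb5, Hoxb6 and Hoxb9 had log2 differences between -0.15 and 0.26. Hoxb9, the counterpart of Hoxa9, Hoxc9 and Hoxd9, read 116, 124, 66.1 and 63.6 suprarenally and 89.97, 129, 114 and 95.4 infrarenally (0.26, SE 0.26, adjusted p = 0.543). Among the 4 genes of paralogue number 9 it was the only one not called. A difference between clusters was not tested. Hoxb1, Hoxb7 and Hoxb13 were too dim to test.

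Pools of the segments did not overlap for 9 members. The 8 called genes were higher infrarenally in every pool (9.29% of all genes tested were so placed), and Hoxc4 was lower in every pool (14.6% of all genes). Hoxa11 and Hoxd10, held in this count and in the correlations below, passed the filter only through their infrarenal pools. Across the 25 tested genes, paralogue number and the mean log2 difference had a Pearson correlation of 0.74 and a Spearman correlation of 0.70. In single pairs the Pearson correlation was 0.64 in untreated WT, 0.48 in Ca+AngII WT, 0.80 in untreated TNC-KO and 0.73 in Ca+AngII TNC-KO mice. These correlations are a description over genes, which share the same pools and are not independent.

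Other probe sets gave a further look at 3 called genes. The second Hoxa9 probe set was higher infrarenally in 4 of 4 pairs, with log2 differences of 1.23, 0.86, 1.34 and 1.18. The second Hoxd8 probe set differed by 1.05, 0.77, 1.42 and 0.56. The second Hoxa10 probe set was dim, at 4.16 to 86.6, and differed by 1.44, 3.47, 2.39 and 0.13. The probe set shared by Hoxb8 and Hoxb7 was lower infrarenally in 4 of 4 pairs (171, 197, 138 and 175 against 88.2, 107, 89.0 and 126), and its signal cannot be assigned to one of the pair. The probe sets shared by Hoxd4 and Hoxd3 differed by 0.57, 1.31, 0.25 and 0.50 and by 0.05, 0.59, 0.07 and 0.84. Of the other Hoxa3 probe sets, the brightest differed by 0.10, 0.63, 0.09 and 1.17. Dimmer ones differed by 0.66, 0.34, 3.28 and 0.34 and by -0.68, -0.18, 0.15 and 0.11. Other probe sets of Hoxc6 disagreed with each other. The brighter differed by -0.26, -0.19, -0.31 and 0.02, and the dimmer by 2.29, 0.23, 1.18 and -0.46.

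Of 3 noncoding RNAs of the clusters tested, 2 were called higher infrarenally and 0 lower. Hoxa11os, transcribed opposite Hoxa11, read 16.9, 19.0, 22.4 and 15.3 suprarenally and 124, 90.3, 78.8 and 76.1 infrarenally (log2 difference 2.31, SE 0.33, adjusted p = 0.0109). Its suprarenal signals lay under the 30th percentile of every pool (40.7 to 47.3), so it passed the filter only through its infrarenal pools. A second, dimmer probe set of Hoxa11os differed by 3.30, -1.81, 3.65 and -0.59 in the 4 pairs. Hoxd3os1, from the Hoxd cluster, read 167, 215, 207 and 207 suprarenally and 438, 457, 510 and 367 infrarenally (1.15, SE 0.14, adjusted p = 0.00682), although its coding neighbour Hoxd3 was not called. Hoxb5os had a difference of -0.69 (SE 0.23, adjusted p = 0.0978).

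Partners and upstream regulators of Hox proteins were counted in the same contrast, where 5.26% of all genes were called higher and 9.97% lower. Of 7 tested PBX, MEIS and PKNOX cofactors, which bind DNA together with Hox proteins, 2 were called higher and 0 lower. Meis2 rose by a log2 difference of 0.62 (SE 0.12, adjusted p = 0.0231) and Pbx3 by 0.48 (SE 0.12, adjusted p = 0.0496). A list of known inputs to Hox clusters held CDX genes and, for the most part, genes of retinoic acid supply and response. Its CDX genes were all too dim to test between segments. Of its 8 tested genes, 2 were called higher and 0 lower. They were the synthetic enzymes Aldh1a3 (1.14, SE 0.15, adjusted p = 0.00905) and Aldh1a2 (0.76, SE 0.17, adjusted p = 0.0367). Of 21 Polycomb and trithorax regulators, which hold Hox genes silent or active, 0 were called higher and 1 lower, Men1 (-0.41, SE 0.10, adjusted p = 0.0472).

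Of 22 other homeobox, T-box and related regional factors tested, 5 were called higher and 4 lower. Tbx20, Hand2 and Isl1, factors of the heart and of sympathetic neurons, fell by 3.12, 3.07 and 3.20 on the log2 scale (adjusted p = 0.00115, 0.00112 and 0.00268). Prrx1, a mesenchymal factor, was higher by 1.18 (SE 0.12, adjusted p = 0.00371) and Nr2f2, a venous and mesenchymal nuclear receptor, by 0.71 (SE 0.10, adjusted p = 0.0115).

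The tissue around the segments differed as well. Sympathetic neuron markers were called lower infrarenally in 5 of 5 tested, with a summed signal of 27312 to 36597 above and 2909 to 6439 below the kidneys. Brown adipocyte markers were called lower in 4 of 6 (sums 33282 to 54267 and 3936 to 26587), fibroblast markers higher in 5 of 6 (sums 44726 to 59823 and 68997 to 101527), endothelial markers higher in 2 of 6, macrophage markers higher in 1 of 5, and smooth muscle markers in 0 of 6 either way (sums 61543 to 75594 and 51223 to 91540). Of the lymphocyte, adipocyte, adrenal cortex, kidney, skeletal muscle, mesothelium and Schwann cell markers 0 were called. Single pools differed widely in some of them even so. Skeletal muscle sums were 1488 to 42720 above and 778 to 15377 below the kidneys, and adrenal cortex sums 324 to 2817 and 367 to 5603. Lymphocyte sums were 2764 to 3549 above and 664 to 672 below in untreated pools, and 415 to 468 and 1274 to 2000 under Ca+AngII. No marker of these lists was at 0. In bulk tissue, more cells of a type and more RNA per cell cannot be told apart, and the part of these markers in the Hox differences was not tested.

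The second question was whether the segment difference itself changed with Ca+AngII or with genotype. With Ca+AngII, 1 of 25 Hox genes was called, Hoxa10, whose segment difference changed by -1.03 (SE 0.19, adjusted p = 0.0139, limma with 2 residual degrees of freedom). Of all genes 14.4% were called and 6.99% were called lower. Hoxa10 in the infrarenal pools was lower under Ca+AngII by -0.99 in WT and -0.63 in TNC-KO mice on the log2 scale, and in the suprarenal pools higher by 0.17 and 0.27. The call was lost when variances were moderated without a trend over signal (adjusted p = 0.0602). Hoxa9 and Hoxc10 had values of the same sign, -0.48 (adjusted p = 0.111) and -0.84 (adjusted p = 0.133), outside the threshold. Hoxd8, Hoxd9 and Hoxd10 had values of the other sign, 0.35, 0.19 and 0.87, also outside it.

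Cell markers moved in the same pools. Summed macrophage signal in the infrarenal aorta was 8653 to 9357 untreated and 32623 to 32763 under Ca+AngII, and 3 of 5 macrophage markers were called higher in the same contrast. Summed smooth muscle signal was 91429 to 91540 untreated and 51223 to 58620 under Ca+AngII, with 5 of 6 markers called lower. Brown adipocyte markers were called lower in 4 of 6 (infrarenal sums 25179 to 26587 untreated and 3936 to 5150 under Ca+AngII), endothelial markers lower in 3 of 6, adipocyte markers lower in 2 of 4 and sympathetic neuron markers lower in 3 of 5. Skeletal muscle markers were called higher in 6 of 6, lymphocyte markers in 4 of 5, and fibroblast and kidney markers in 1 of 6 and 1 of 2. The part of these markers in the Hoxa10 value was not tested.

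With genotype, 0 of 25 Hox genes and 0 of 14258 genes (0.00%) were called by limma for a segment difference that changed, while 83 genes had an unadjusted p under 0.05, among them Hoxa7 and Hoxc5. The residual of this fit holds the change with Ca+AngII, which was called for 2059 genes. A count of 0 therefore says little about genotype. The single pools allow no test of treatment or genotype within a segment. By values alone, 0 of 25 Hox genes differed at least 2-fold between Ca+AngII and untreated pools of the same segment in both genotypes. In the suprarenal aorta 0.764% of all genes were at least 2-fold higher and 1.09% lower, and in the infrarenal aorta 7.46% and 4.14%. Likewise 0 of 25 differed at least 2-fold between TNC-KO and WT pools in both segments, where 0.203% of genes were higher and 0.442% lower untreated, and 0.400% and 0.112% under Ca+AngII.

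The third question concerned the cultured TNC-KO cells and their response to TNF and TNC. With TNF every called Hox gene was lower, both without and with TNC, and low and high paralogue numbers were among them. Without TNC, 9 of 23 tested members were called lower and 0 higher. Of 15534 genes 34.6% were called and 20.3% were called lower (limma, 4 groups fitted together, 10 residual degrees of freedom). Counted either way, the members lay near the share of all genes. The 9 members were Hoxa2, Hoxa3, Hoxa4, Hoxa5, Hoxa7, Hoxb3, Hoxb5, Hoxd8 and Hoxd9. The median log2 change over the members was -0.37, and over all genes -0.06. In the presence of TNC, 8 of 23 were called lower and 0 higher (22.1% of genes called, 9.60% higher and 12.5% lower), namely Hoxa2, Hoxa3, Hoxa4, Hoxa5, Hoxa9, Hoxb2, Hoxb3 and Hoxc13, with a median of -0.43 against -0.01. This count was 5 without TNC array 3 or 4 or without array 2 of both factors. The contrasts share arrays and are given side by side. Centring each array on its median shifted all genes by 0.11 in the TNF contrast without TNC and by 0.17 in the TNC contrast without TNF, turned the share of called genes that were higher from 41.2% to 57.4% in the former and from 50.7% to 76.2% in the latter, and left 6 members called lower with TNF in each contrast. In all, 13 of the 23 tested members were called in at least 1 of the 4 comparisons of TNF and TNC. The share of all genes called in at least 1 of them was not counted, so this number sets Hox genes apart in nothing.

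Hoxa2, known from the hindbrain and the neural crest of the second arch, responded to both factors. It read 536, 453 and 447 in untreated cells, 252, 262 and 290 with TNF, 310, 270, 305 and 306 with TNC, and 169, 163, 190 and 161 with both. The untreated arrays were the highest and the arrays with both factors the lowest, with no overlap. TNF changed it by -0.83 (SE 0.09, adjusted p = 3.06e-05) without TNC and by -0.80 (SE 0.08, adjusted p = 3.47e-05) with it. TNC changed it by -0.68 (SE 0.09, adjusted p = 0.000131) without TNF and by -0.65 (SE 0.09, adjusted p = 0.000261) with it. The interaction was 0.03 (SE 0.12, adjusted p = 0.901).

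Hoxa3, needed for third-arch arteries and the carotid body in the embryo, read 756, 770 and 722 untreated, 518, 554 and 542 with TNF, 810, 668, 682 and 725 with TNC, and 470, 442, 492 and 368 with both. The arrays with TNF lay below those without it. TNF changed it by -0.48 (SE 0.10, adjusted p = 0.00364) and, with TNC, by -0.71 (SE 0.09, adjusted p = 0.000186). Averaged over all its probe sets the effects missed the threshold (adjusted p = 0.182 and 0.21). Hoxa5, a gene of the lung and neck, read 2062, 2065 and 2271 untreated, 1289, 1260 and 1115 with TNF, 1962, 1757, 1547 and 1773 with TNC, and 1417, 1235, 1188 and 1010 with both. TNF changed it by -0.81 (SE 0.12, adjusted p = 0.000274) without TNC and -0.54 (SE 0.10, adjusted p = 0.00317) with it.

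Hoxa4 read 433, 495 and 308 untreated and 200, 223 and 228 with TNF, without overlap (-0.90, SE 0.19, adjusted p = 0.00267). Its arrays with TNC read 360, 237, 257 and 267, and with both factors 177, 182, 228 and 196. The other Hoxa4 calls were borderline. The TNF effect with TNC (-0.50, adjusted p = 0.0437) was lost in 10 of the 14 fits that left out 1 array (without TNC array 1, -0.38, adjusted p = 0.117). Averaged over the probe sets of Hoxa4 it was -0.19 (adjusted p = 0.544), and quantile normalization, median centring and no filter also ended the call. The TNC effect without TNF (-0.55, SE 0.17, adjusted p = 0.0322) was lost in 5 of them, farthest without untreated array 2 (-0.40, adjusted p = 0.139), and under median centring (-0.38, adjusted p = 0.101).

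Hoxa7 read 337, 435 and 452 untreated and 261, 279 and 243 with TNF (-0.63, SE 0.14, adjusted p = 0.0039). With TNC its arrays read 418, 345, 345 and 365, and with both 327, 324, 246 and 327, a TNF effect of -0.27 (adjusted p = 0.136). Hoxd9 read 167, 131 and 151 untreated, 99.5, 97.6 and 91.6 with TNF, 117, 103, 95.6 and 118 with TNC, and 92.0, 85.8, 127 and 116 with both. TNF without TNC changed it by -0.63 (SE 0.15, adjusted p = 0.00615). TNC without TNF changed it by -0.47 (SE 0.14, adjusted p = 0.0241), a call lost without TNC array 2 or 3 or untreated array 1 or 3 (-0.46 to -0.39, adjusted p from 0.0566 to 0.1), under median centring (-0.30, adjusted p = 0.102) and under quantile normalization (adjusted p = 0.0512).

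Hoxa9, the member with the lowest adjusted p between segments, was called for TNF in cells with TNC and not in cells without it. It read 271, 316 and 268 untreated, 269, 313 and 296 with TNF, 280, 297, 290 and 270 with TNC, and 213, 220, 226 and 197 with both. The 4 arrays with both factors were below the other 10. TNF changed it by -0.41 (SE 0.07, adjusted p = 0.00172) with TNC and by 0.04 (SE 0.08, adjusted p = 0.755) without it, and the interaction was -0.45 (SE 0.11, adjusted p = 0.014), the only one called among the members (18.8% of genes called, 9.81% higher and 9.01% lower). Averaged over its probe sets the interaction was -0.36 with an adjusted p of 0.282. Hoxa10 read 157, 209 and 170 untreated, 228, 233 and 204 with TNF, 152, 124, 188 and 160 with TNC, and 149, 139, 147 and 82.4 with both. TNC with TNF changed it by -0.81 (SE 0.21, adjusted p = 0.0124), or by -1.23 (adjusted p = 0.0961) averaged over its probe sets, and its interaction of -0.61 had an adjusted p of 0.183.

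For TNC, 4 of 23 members were called without TNF and 6 with it, counts not above the shares of all genes. Without TNF, 1 of 23 members was called higher, Hoxb2, and 3 lower, Hoxa2, Hoxa4 and Hoxd9 (31.8% of genes called, 16.1% higher and 15.7% lower). With TNF, 1 was called higher, Hoxb2, and 5 lower, Hoxa2, Hoxa3, Hoxa9, Hoxa10 and Hoxc13 (28.2% called, 16.3% higher and 11.9% lower). The first count of 4 members fell to 1 without TNC array 2 and to 2 without TNC array 3 or any of the untreated arrays, and the second count of 6 to 3 without TNF array 3. Under median centring 74.2% of called genes were higher in the second contrast, against 57.8%. Hoxb2 read 1102, 835 and 689 untreated, 620, 723 and 586 with TNF, 1219, 1272, 1149 and 1186 with TNC, and 972, 754, 986 and 806 with both. TNC changed it by 0.49 (SE 0.15, adjusted p = 0.0269) without TNF, lost without TNC array 1 or 2 or untreated array 2 or 3 (0.33 to 0.48, adjusted p from 0.0537 to 0.119). With TNF the change was 0.45 (SE 0.15, adjusted p = 0.0436), lost in 10 of 14 fits that left out 1 array, farthest without TNF array 3 (0.38, adjusted p = 0.145), and under quantile normalization, no filter and averaged probe sets (adjusted p from 0.0550 to 0.0614). In the TNC contrast without TNF, 5 of 6 smooth muscle markers were called lower (sums of 32022 to 35172 with TNC) and 4 of 6 fibroblast markers higher (16212 to 17265 untreated and 29444 to 31556 with TNC). With TNF, 1 of 6 smooth muscle markers was called lower, and 2 of 6 fibroblast markers higher and 1 lower. Their part in the Hox changes was not tested.

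**Figure D3:**
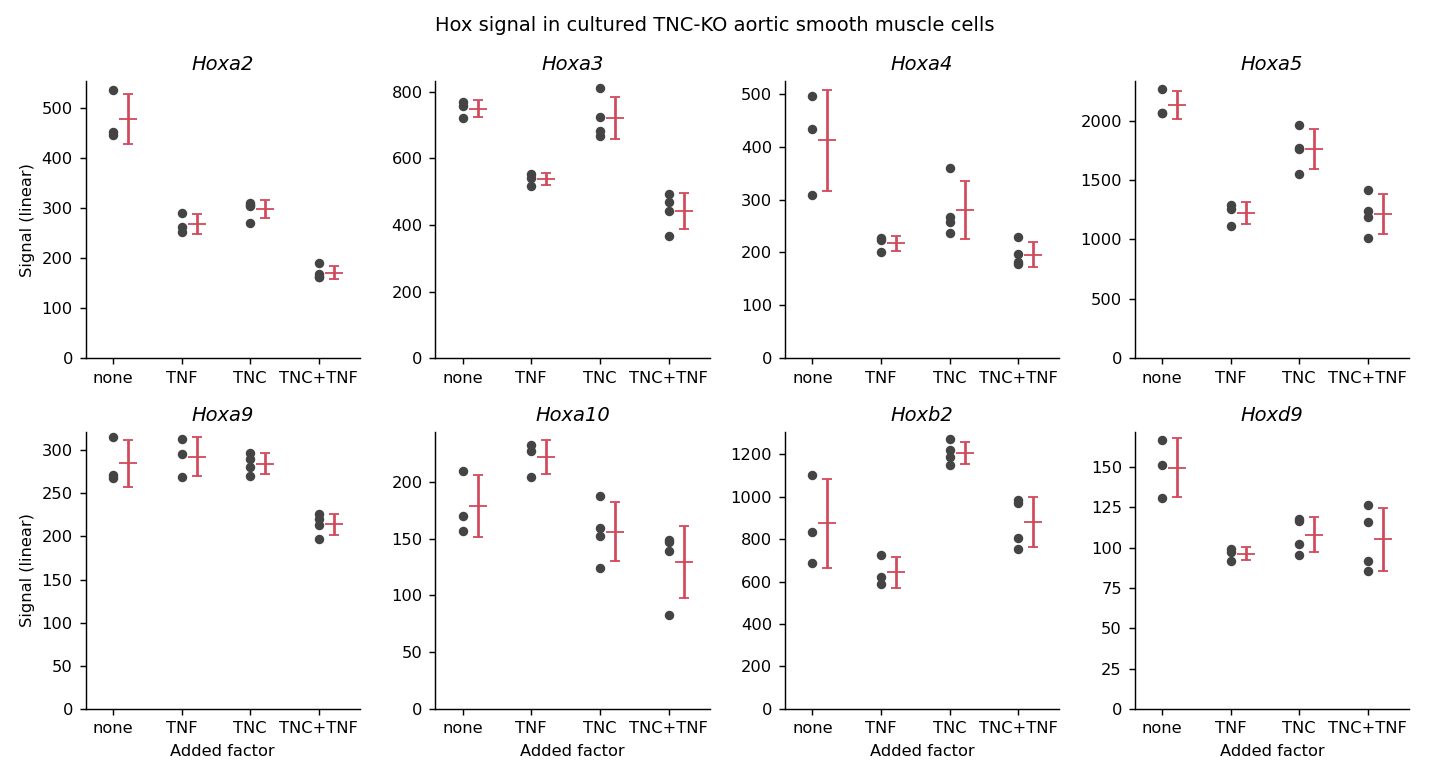
Linear signal of 8 Hox genes in the cultured TNC-KO cells, by added factor. Points are arrays and bars show the mean and SD of each group (n = 3, 3, 4 and 4). Hoxa2 steps down with each factor, Hoxa9 is lower where both are present (197 to 226), and Hoxb2 is highest with TNC alone.

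Hoxb3 changed with TNF by -0.37 (SE 0.10, adjusted p = 0.0171) without TNC and -0.43 (SE 0.09, adjusted p = 0.00512) with it. It read 1122, 1198 and 1101 untreated, 816, 923 and 919 with TNF, 999, 900, 1097 and 1045 with TNC and 732, 747, 869 and 653 with both. Its first call was lost without TNF array 1 (-0.31, adjusted p = 0.0692) or untreated array 2 (-0.33, adjusted p = 0.0612) and under median centring (-0.25, adjusted p = 0.0807), and both calls were lost with averaged probe sets (adjusted p = 0.0663 and 0.0659). Hoxb5 (300, 230 and 269 untreated and 165, 216 and 172 with TNF) changed by -0.53 (SE 0.15, adjusted p = 0.0169), a call lost without TNF array 1 or 3 or untreated array 1 (-0.49 to -0.44, adjusted p from 0.0595 to 0.0684) or under median centring (-0.42, adjusted p = 0.0680).

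Hoxd8 (461, 516 and 504 untreated and 383, 408 and 454 with TNF) changed by -0.25 (SE 0.09, adjusted p = 0.0408), and the call was lost in 7 of 14 fits that left out 1 array, farthest of these without TNF array 1 (-0.20, adjusted p = 0.149). It was also lost under median centring (-0.14, adjusted p = 0.399), quantile normalization (-0.17, adjusted p = 0.196), averaged probe sets and no filter. Hoxb2 changed with TNF in the presence of TNC by -0.46 (SE 0.14, adjusted p = 0.0324), lost in 6 of them, farthest without array 2 of both factors (-0.39, adjusted p = 0.0901), and under median centring (adjusted p = 0.0632). The Hoxa3 effect of TNC with TNF (-0.29, SE 0.10, adjusted p = 0.0453) was lost in 10 of them (without TNF array 2, -0.27, adjusted p = 0.13). It was also lost under median centring (-0.19, adjusted p = 0.266), with averaged probe sets (-0.10, adjusted p = 0.82) and with no filter. Hoxc13, at 2.74 to 38.6 near the detection limit, changed by -2.11 (adjusted p = 0.029) with TNF in the presence of TNC and by -2.18 (adjusted p = 0.0291) with TNC in the presence of TNF, and these calls were lost in 5 and 4 of the 14 fits. With 32 added to each signal before taking log2 the changes were -0.59 and -0.57 (adjusted p = 0.0307 and 0.0409).

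Lists of partners and inputs were counted in the cells too. With TNF alone 34.6% of all genes tested were called, 14.3% higher and 20.3% lower. Of 8 tested cofactors, 0 were called higher and 3 lower with TNF alone, among them Pbx3 (-0.94) and Meis1 (-0.63). Of 9 tested genes of the CDX and retinoid list, with Cdx2 as the only CDX gene, 0 were called higher and 6 lower. Among the 6 were the enzymes Aldh1a1 (-1.14) and Aldh1a2 (-0.67). Of 21 Polycomb and trithorax regulators 5 were called higher and 3 lower, of 26 regional factors 0 and 9, and of 3 noncoding RNAs 0 and 1, Hoxb5os (-1.04). Counted either way, the cofactors, the Polycomb and trithorax regulators, the regional factors and the noncoding RNAs lay near the share of all genes. In the same contrast 6 of 6 smooth muscle markers were called lower, with sums of 39970 to 41496 in untreated cells and 23509 to 25565 with TNF, and 2 of 6 fibroblast markers were called higher. Macrophage, lymphocyte and adipocyte markers summed to at most 567, 200 and 253 in the cells. The part of these shifts in the Hox changes was not tested.

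The last comparison set the cells beside the 4 pools of TNC-KO aorta, by values alone. The cells came from suprarenal aorta, while the pools are of both segments, untreated and under Ca+AngII. Most Hoxc genes were dim in culture and bright in tissue, while several anterior Hoxa and Hoxb genes were brighter in culture. Of 27 members tested in aorta or cells, 9 read lower in all 14 cell arrays than in all 4 TNC-KO pools and 6 read higher, where 20.6% of 16142 genes were lower throughout and 13.4% higher. Lower throughout were Hoxc4, Hoxc5, Hoxc6, Hoxc8, Hoxc9, Hoxc10, Hoxa9, Hoxd3 and Hoxd10. Of these, Hoxc5, Hoxc9, Hoxc10 and Hoxd10 were below the filter in the cells. They are in the count only because they passed the filter in the aorta, where they are brighter, so the count cannot be weighed against the share of all genes. Higher throughout were Hoxa3, Hoxa4, Hoxa5, Hoxb2, Hoxb3 and Hoxb4.

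Of 7 Hoxc genes, 6 were lower throughout and the seventh, Hoxc13, was dim in both. Hoxc8 read 1414 to 1945 in the TNC-KO pools and 0.969 to 119 in the cells. Hoxc4 read 325 to 754 in the pools and 4.00 to 52.0 in the cells. Hoxc10 read 134 to 427 and 0.712 to 18.9, Hoxc9 222 to 549 and 6.94 to 45.6, Hoxc6 253 to 295 and 1.71 to 61.4, and Hoxc5 154 to 336 and 0.676 to 21.7. Many of these cell signals lie at or under the 30th percentile of their arrays (18.1 to 23.1), so no fold is given. Hoxd10 read 42.0 to 127 in the pools and 0.393 to 10.5 in the cells.

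Hoxa4 read 24.5 to 78.9 in the pools and 177 to 495 in the cells. Its untreated suprarenal pool, at 32.7, was under the 30th percentile of every pool (40.7 to 47.3), so no fold is given, and a second probe set read 36.5 there and 101 on average in untreated cells. On the mean of log2 values, untreated cells against the untreated suprarenal pool, Hoxa3 was 3.62-fold, Hoxb3 3.31-fold, Hoxa5 3.16-fold, Hoxb4 2.92-fold and Hoxb2 2.19-fold higher. Hoxa9 read 197 to 316 in the cells, below the suprarenal pools (536 and 573) and the infrarenal ones (1998 and 1707). Hoxd8 (383 to 516) and Hoxa10 (82.4 to 233) overlapped the pools.

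**Figure D4:**
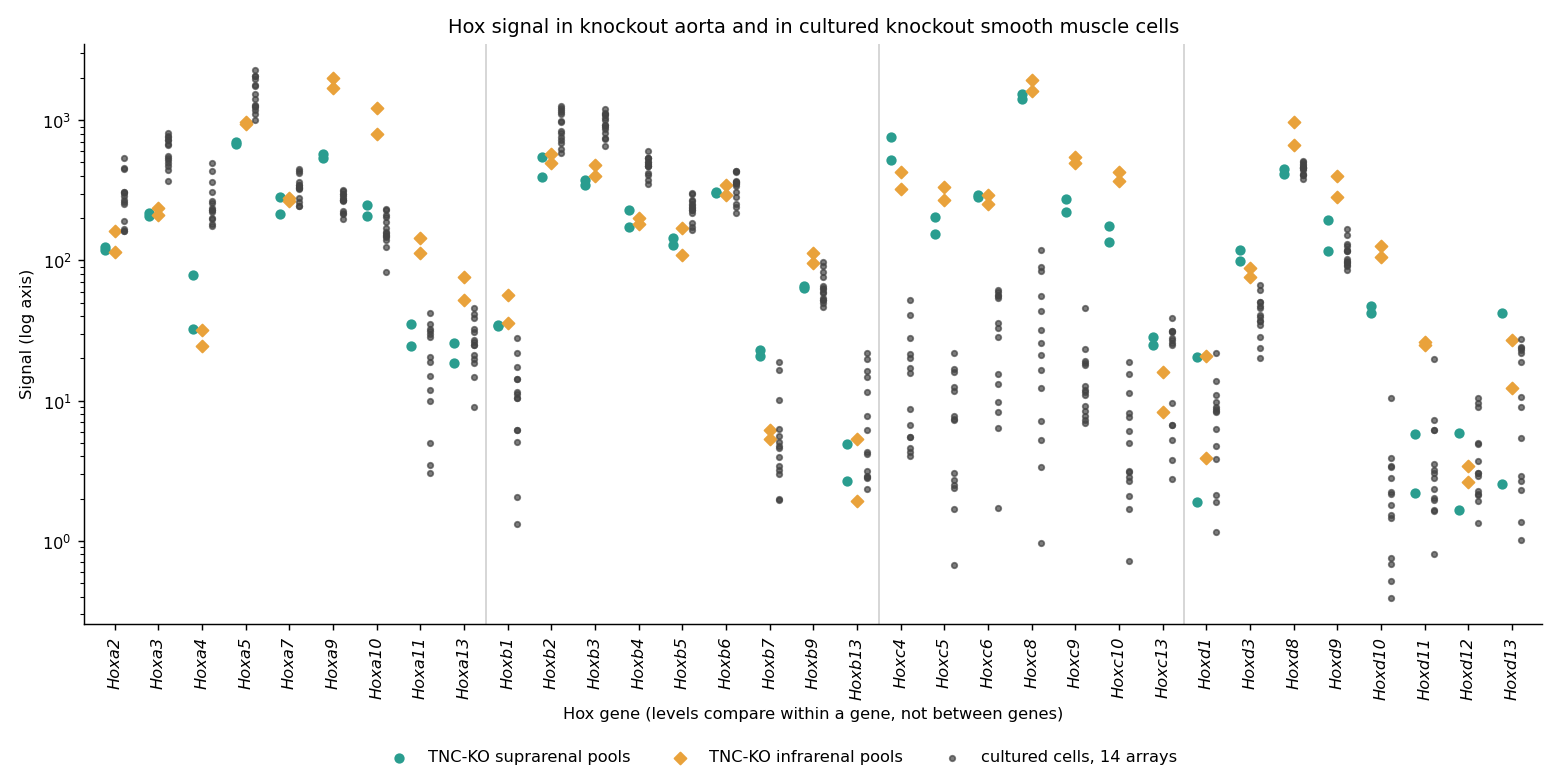
Signal of the 33 Hox genes in the 4 TNC-KO pools and the 14 arrays of cultured TNC-KO cells, on a log axis, ordered by cluster. Levels compare within a gene. The cells lie far below the pools for Hoxc4 to Hoxc10 and above them for Hoxa3, Hoxa4, Hoxa5, Hoxb2, Hoxb3 and Hoxb4.

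The scaling of the arrays bears on this comparison, since cells and tissue hold different RNA. Under quantile normalization 8 members were lower and 9 higher throughout, and under median centring 7 and 10. The 6 Hoxc genes were lower throughout under all 3 scalings. Hoxa9 overlapped the pools under median centring and Hoxd3 under both. The part of the loss of other cell types from tissue to culture was not tested. Fibroblast markers summed to 16212 to 33865 in the cells and 44726 to 101527 over the 8 pools, and brown adipocyte and sympathetic neuron markers to at most 1095 and 330 in the cells.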

How the data were processed

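The deposited values are linear intensity per probe set of an Affymetrix whole-genome mouse array, made by the authors with Affymetrix Expression Console, per the submitters' processing notes. The software's version and algorithm were not stated in the sources used here. With the extremes trimmed, leaving 96% of probe sets, every array averaged 499.8 to 499.9, so arrays had been scaled to a common mean, which can shift all genes of cells against tissue. Values were used as log2 without pseudocount. Of 45101 probe sets, 34945 named 1 gene, 932 named several, 9160 none and 64 were controls. The brightest probe set over 22 arrays stood for its gene.

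Genes at or above the 30th percentile of an array on at least 4 of 8 pools (14258 genes) or 3 of 14 cell arrays (15534) were fitted in limma 3.58.1 (R 4.3.3), pools with the pair as a block and a variance trend, cells as 4 groups, with Benjamini-Hochberg adjustment. The scripts were tested on simulated data. The pair stands for the 2 pools of a genotype and treatment. Equal replicate numbers in the cells mark no pairs, since 19 same-numbered pairs correlated at -0.016 to 0.057 after group means were removed. P-values of the cells measure the spread between cultures, which the design text calls independent.

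The Hox genes, the other gene lists and the alternatives (scaling, filter, probe set, offset of 32, variance model, block, arrays left out) were chosen with earlier results of these data known. Every Hox gene could be named. Values of each pool were given for members called between segments and for those where the sign changes within a cluster, and values of each array for members called in the cells. Of other lists up to 5 genes were named, called ones first, but not strictly in order of adjusted p. Some called genes of lower adjusted p were left out. The promoters of Hoxc9 and Hoxc10 were not used here.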

Additional observations from a re-analysis of the deposited data

Results flagged for a closer look

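In the cells, 46 groups of 4 arrays were checked for an array far from the other 3, and 5 had one. Chance alone gives about 1 in 20 such groups. With TNC alone, Hoxa2 read 270.5 on 1 array and 305 to 310 on the others. With both factors, Hoxa7 read 246.0 against 324 to 327, Hoxa10 82.4 against 139 to 149, Hoxc4 21.4 against 4.00 to 5.46 and Hoxc6 53.7 against 1.71 to 9.72. The Hoxc4 and Hoxc6 signals are all dim, far under the TNC-KO pools.

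The segment difference of Hoxa10 was smaller under Ca+AngII than untreated, by -1.03 on the log2 scale (limma, adjusted p = 0.0139). The TNF effect on Hoxa9 differed between cells with and without TNC by -0.45 (limma, adjusted p = 0.014).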

How the results depend on the processing

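No direction of a called Hox gene reversed under any alternative run, and of 727 alternative values for called members 609 stayed called and 118 did not. Between segments, 8 members were called, 6 to 9 with all pairs under another scaling, filter, probe set rule, offset, variance model or block, 8 in the untreated pairs alone (7 higher and Hoxc4 lower), 8 in the Ca+AngII pairs alone, and 4 to 6 with 1 pair left out. The 9 without the pair block were 8 higher and Hoxc4 lower. Over all genes 2171 were called, 753 to 1096 with 1 pair left out, 3551 and 4856 in the untreated and the Ca+AngII pairs alone. Hoxa9, Hoxa10 and Hoxd9 stayed called in all 14 alternatives. For the change of the segment difference with Ca+AngII, 1 member and 2059 genes were called, and 0 and 505 without a variance trend; the cause was not tested.

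With 1 array left out, members called in the cells numbered 6 to 9 for TNF without TNC, 5 to 8 for TNF with TNC, 1 to 5 for TNC without TNF, 3 to 6 for TNC with TNF and 1 to 2 for the interaction, against 9, 8, 4, 6 and 1. The interaction count was 2 under a filter at the 50th percentile, which tests fewer genes. Over all genes it was 2923, and 1905 with all probe sets averaged, and median centring moved the share of higher calls from 52.1% to 39.0%. With the replicate number as a block the counts were 8, 6, 3, 5 and 1. The numbers do not pair the arrays.

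The aortic design has 1 pool for each genotype, segment and treatment and 3 residual degrees of freedom. Dim members, 8 in the aorta and 10 in the cells, were not tested. Segments differ in neuronal, adipose and fibroblast markers, and cells and tissue in composition and in scaling, and none of this was separated from the Hox differences.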
